A study of Homo sapiens with 4 samples.

Results

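The amino acid transporter families SLC1, SLC3, SLC6, SLC7, SLC36, SLC38 and SLC43 were examined in MDA-MB-231 cells, a triple-negative breast cancer line, sorted by the activity of a Wnt reporter. Members were the protein-coding genes whose symbol consists of one of these family prefixes followed by digits only, which gave 59 of the 43714 genes in the count table and of its 19125 protein-coding genes. There were 7 members in SLC1, 2 in SLC3, 19 in SLC6, 13 in SLC7, 4 in SLC36, 11 in SLC38 and 3 in SLC43. SLC7A6OS, a gene that lies opposite SLC7A6 and encodes no transporter, shares the prefix and was set aside.

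The 7TGP-POS line is the reporter-active one and the 7TGP-NEG line the reporter-inactive one, with 2 RNA-seq libraries of total RNA each. Their treatment labels read 7TGP vector transfected for 7TGP-POS and control for 7TGP-NEG. Both lines descend from MDA-MB-231 cells that stably carry the 7TGP plasmid, in which EGFP is driven by 7 TCF sites, and both were selected with puromycin at 3 ug/mL and grown in DMEM with 10% serum. After 8 rounds of sorting, over 80% of 7TGP-POS cells had EGFP and over 95% of 7TGP-NEG cells lacked it. Each reporter state is thus 1 sorted line, so effects of reporter activity and of any unrelated drift between the sorts cannot be told apart. Nothing in the labels says whether the libraries of a line are separate cultures, so p-values measure only the spread between libraries, which may be technical.

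These families carry amino acids, and in part neurotransmitters, osmolytes and nucleobases, across the plasma membrane and lysosomal membrane. Exchangers such as SLC1A5 and the SLC3A2-SLC7A5 pair swap one amino acid for another, while sodium-coupled carriers such as SLC38A2 load the cell. The SLC3 proteins carry no substrate themselves: they bring SLC7 light chains to the cell surface. Shortage of amino acids is known to raise several of these genes through the transcription factor ATF4, which binds C/EBP-ATF response elements. SLC7A11, which imports cystine for glutathione, is known as a target of NRF2, which binds antioxidant response elements.

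Library totals were 62539034 and 55894092 counts in 7TGP-POS and 63034563 and 58429705 counts in 7TGP-NEG, and Spearman's rho across genes was 0.992 within each line against 0.980 to 0.983 between lines. Levels are given as CPM, counts per 1e6 on library sizes scaled by TMM, edgeR's correction for library composition. The Wnt feedback gene AXIN2 had 19.0 and 18.1 CPM in 7TGP-POS libraries against 11.1 and 11.8 CPM in 7TGP-NEG libraries (edgeR adjusted p = 5.26e-06). Of the markers of a mesenchymal triple-negative line, VIM had 1256 and 1342 CPM in 7TGP-POS and 2712 and 2623 CPM in 7TGP-NEG, and CD44, AXL and MSN had 236 to 821 CPM. Markers expected to be low were ESR1 at 4.88 to 6.17 CPM, PGR at 0.331 to 0.618 CPM, CDH1 at 0.393 to 0.858 CPM and EPCAM at 4.49 to 4.74 CPM. Of leukocyte markers, PTPRC had 2.90 and 2.77 CPM in 7TGP-POS and 1.92 and 2.07 CPM in 7TGP-NEG (edgeR adjusted p = 0.0531). CD14 had 3.85 and 3.81 CPM in 7TGP-POS and 2.64 and 3.32 CPM in 7TGP-NEG (edgeR adjusted p = 0.134), and CD3E had at most 0.114 CPM. The 4 endothelial markers summed to 85.9 and 69.5 CPM in 7TGP-POS and to 95.9 and 82.2 CPM in 7TGP-NEG, nearly all of it PECAM1, with CDH5 at most 0.430 CPM. KDR, 1 of these 4, was higher in 7TGP-POS (edgeR adjusted p = 0.0302). The part of these cell type markers in the results was not tested. In bulk RNA, fewer cells of a type and less RNA per cell cannot be told apart.

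C/EBP-ATF response elements were searched in the RefSeq promoters of the members because these sequences are the known route from amino acid shortage to transporter genes. Windows ran from 250 bases before to 50 after each transcription start on GRCh38.p14, and 44 of the 59 members had at least 1 window. SLC7A11 and the called members SLC43A3, SLC7A2, SLC6A6 and SLC3A1 had none and were not searched. The motif TGATGNAAN was searched on both strands. It was in 6 of the 66 windows of members, against 3.61% of all 35116 windows. The share per gene depends also on the number of windows a gene has. Per gene, 6 members held the motif, 13.6% of the 44, against 4.45% of the 27305 genes with a window. These were SLC7A1, SLC3A2, SLC1A5 and SLC1A4, 4 of the 9 members with a window that rose in 7TGP-POS, and SLC38A1 and SLC1A3, which did not pass the test. The 30 bases around each match are printed 5′ to 3′ on the gene's strand, with the match in capitals; in SLC3A2 and SLC1A4 the match lies on the opposite strand.
SLC7A1: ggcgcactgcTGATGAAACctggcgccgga
SLC3A2: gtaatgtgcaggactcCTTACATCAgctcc
SLC1A5: aggaagtggcTGATGCAAGctgtccagggt
SLC1A4: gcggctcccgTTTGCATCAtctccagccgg
SLC38A1: cagacccgaaTGATGAAAAgggatcagcta
SLC1A3: aggaaatgacTGATGCAAAgcagggttaac
They lie at chr13:29595662-29595691 (minus strand), chr11:62881719-62881748 (plus), chr19:46784892-46784921 (minus), chr2:64989381-64989410 (plus), chr12:46266501-46266530 (minus) and chr5:36596358-36596387 (plus), in the order printed. Counted with the first transcribed base as 1 and the base before it as -1, the match begins at position 8 in SLC7A1, 37 in SLC3A2, -97 in SLC1A5, -8 in SLC1A4, -4 in SLC38A1 and -220 in SLC1A3. Of the 6 RefSeq starts, that of SLC7A1 is the annotated gene start. Those of SLC3A2, SLC1A5, SLC38A1 and SLC1A4 lie 25597, 3780, 3501 and 922 bases inside the annotated gene, and that of SLC1A3 lies outside it, at -9767 on the same count.

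The antioxidant response element TGACNNNGC, on both strands, was in 7 of the 66 windows of members, against 13.3% of all windows. Per gene, it was in 7 of the 44 members, 15.9%, against 16.1% of all genes with a window. SLC7A11, the known NRF2 target, had no window and is not among the 44. SLC7A1, SLC3A2, SLC1A5 and SLC1A3 were among these 7 and held both kinds of element. In SLC7A1 and SLC3A2 both lay in the same window, and in SLC1A5 and SLC1A3 they lay in different windows. The 250 bases before the starts of SLC7A1 and SLC3A2 show, in capitals, where the antioxidant element lies in the cationic carrier and the heavy chain; SLC7A1 is chr13:29595689-29595938 on the minus strand and SLC3A2 is chr11:62881449-62881698 on the plus strand.
SLC7A1: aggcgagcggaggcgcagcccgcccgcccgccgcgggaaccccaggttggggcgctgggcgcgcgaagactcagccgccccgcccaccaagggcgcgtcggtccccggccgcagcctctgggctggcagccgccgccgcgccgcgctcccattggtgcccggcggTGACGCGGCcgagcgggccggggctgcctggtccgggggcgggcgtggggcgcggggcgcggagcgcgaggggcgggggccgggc
SLC3A2: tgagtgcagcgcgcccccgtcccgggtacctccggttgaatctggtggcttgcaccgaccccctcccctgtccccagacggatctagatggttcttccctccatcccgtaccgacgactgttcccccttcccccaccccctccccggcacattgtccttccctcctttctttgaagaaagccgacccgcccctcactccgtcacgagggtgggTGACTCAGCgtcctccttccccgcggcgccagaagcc
SLC7A5, SLC7A7 and SLC7A6 held only this element, and 5 of the 7 holders rose. The TCF/LEF motif CTTTGAT, the kind of site the reporter carries, was in 0 of the 44 members and in 3.18% of all genes with a window. A match is a run of letters and not a shown site of binding, and no match says only that the letters are not in this window.

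In the comparison of the lines, 11 of the 49 members tested rose in 7TGP-POS, 3 fell and 35 did not pass. The genes that rose were SLC43A3, SLC6A14, SLC7A2, SLC7A7, SLC1A4, SLC38A4, SLC7A1, SLC1A5, SLC7A5, SLC3A2 and SLC36A4. Those that fell were SLC6A6, SLC6A9 and SLC3A1, for taurine, glycine and the heavy chain of cystine uptake. A gene rose or fell where edgeR's quasi-likelihood test gave a Benjamini-Hochberg adjusted p under 0.05 over all 30952 genes tested. The share of members that rose was 22.4%, against 11.6% of all genes tested and 14.7% of protein-coding genes. The share that fell was 6.12%, against 10.9% of all genes and 14.8% of protein-coding genes. In all, 28.6% of the members tested were called, against 22.4% of all genes and 29.5% of protein-coding genes, so the share called was near that of protein-coding genes. With scaling by total counts 8 members rose and 3 fell, and rises were 36.0% of the calls over all genes, against 51.5% with TMM. The median log2 fold change over the 49 members was 0.06, against -0.00 over all genes, with a range of -1.19 to 1.34. In 28 of the 49 members the libraries of the lines did not overlap, against 57.7% of all genes and 63.6% of protein-coding genes. These were 19 members with both 7TGP-POS libraries above and 9 with both below.

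**Figure D1:**
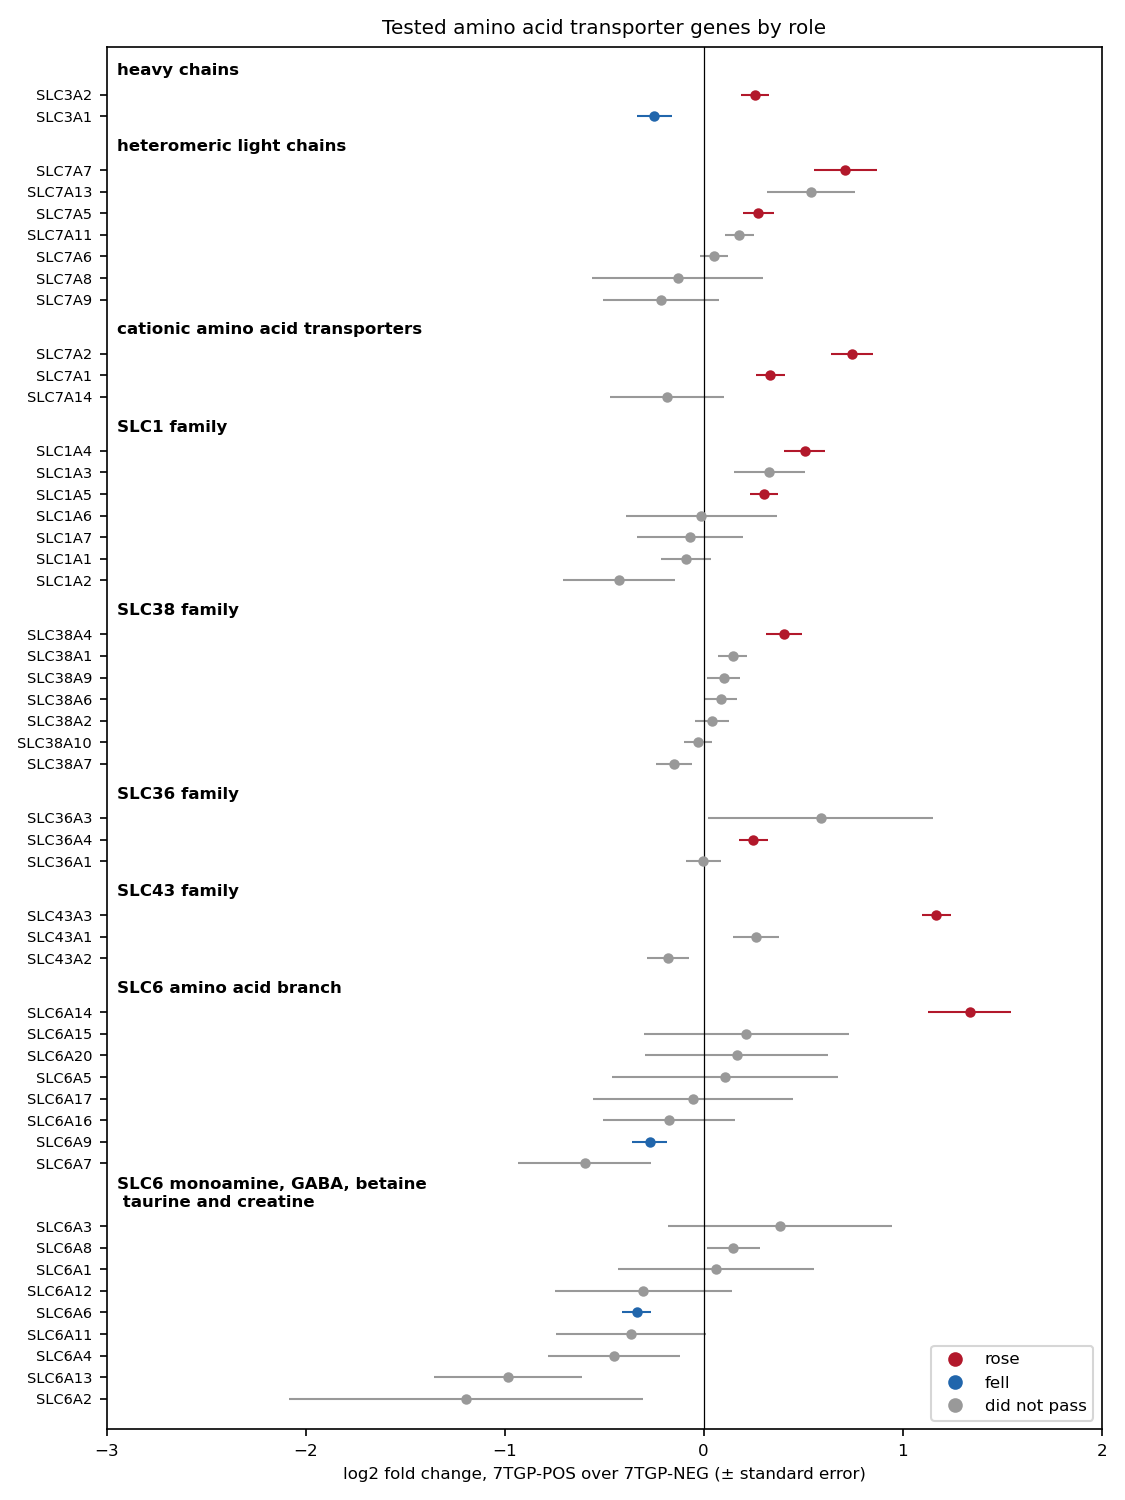
Log2 fold change of each tested member, 7TGP-POS over 7TGP-NEG, with its standard error, grouped by role; colours mark members that rose, fell or did not pass. Passing rises run to 1.34 in SLC6A14 and 1.17 in SLC43A3, and the 3 falls lie between -0.34 and -0.25.

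Calls were split by level. At 5 CPM or more in the higher line there were 25 members, of which 9 rose, 3 fell and 13 did not pass. This is 36.0% and 12.0%, against 17.5% and 18.0% of the 12306 protein-coding genes at that level. The other 34 members stayed under 5 CPM in both lines, and 10 of them were too low to test, with 0 to 12 counts per library and at most 0.191 CPM. These were SLC36A2, SLC38A3, SLC38A5, SLC38A8, SLC38A11, SLC6A18, SLC6A19, SLC7A3, SLC7A4 and SLC7A10. Of the 24 low members that were tested, SLC6A14 and SLC7A7 rose and 22 did not pass, at 0.0763 to 3.07 CPM.

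Both heavy chains were called, in opposite directions. SLC3A2, also known as 4F2hc or CD98, is the partner of SLC7A5, SLC7A6, SLC7A7, SLC7A8, SLC7A10 and SLC7A11. It lies at chr11:62856102-62888875 and had 76.2 and 79.8 CPM in 7TGP-POS libraries against 64.9 and 65.4 CPM in 7TGP-NEG libraries. The lines did not overlap, with means of 78.0 ± 2.51 and 65.2 ± 0.355 CPM (SD, n = 2 each). Its log2 fold change was 0.26 ± 0.07 (SE), a 1.20-fold level (edgeR adjusted p = 0.0103). The call was lost without 7TGP-NEG replicate 1 (edgeR adjusted p = 0.192), without 7TGP-NEG replicate 2 (0.172) and with scaling by total counts (0.0909), within a range of 4.08e-05 to 0.192 over 12 alternatives. SLC3A2 overlaps no other gene of the table.

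SLC3A1, the heavy chain known as rBAT, pairs with SLC7A9 and SLC7A13 in cystine and cationic amino acid transport by kidney and gut. At chr2:44275458-44321494, it had 14.6 and 16.6 CPM in 7TGP-POS against 18.4 and 18.5 CPM in 7TGP-NEG, without overlap of the lines. It fell to 84.2% of the 7TGP-NEG level, a log2 fold change of -0.25 ± 0.09 (edgeR adjusted p = 0.0480). Of the 14 calls it was lost under the most alternatives. It did not pass with RLE scaling (edgeR adjusted p = 0.0561), DESeq2 (adjusted p = 0.153), limma-voom (0.0527) or without 7TGP-POS replicate 1 (0.242), 7TGP-NEG replicate 1 (0.236) or 7TGP-NEG replicate 2 (0.227), with a range of 0.00158 to 0.242. Without 7TGP-POS replicate 1 its log2 fold change was -0.15. Genes that overlap SLC3A1 had more counts than it did: ENSG00000285542 covers 97.4% of its span with 193% of its counts, and PREPL had 234%, and neither passed.

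Among the light chains, SLC7A5 and SLC7A7 rose and 5 of the 7 tested did not pass, with a median log2 fold change of 0.18. SLC7A5, or LAT1, exchanges large neutral amino acids such as leucine for glutamine. At chr16:87830023-87869488, it had 50.3 and 50.9 CPM in 7TGP-POS libraries against 44.3 and 39.3 CPM in 7TGP-NEG libraries. The 7TGP-POS libraries lay close together above a wider 7TGP-NEG pair, with means of 50.6 ± 0.419 and 41.8 ± 3.50 CPM. The log2 fold change was 0.28 ± 0.08, a 1.21-fold level (edgeR adjusted p = 0.0111). Without 7TGP-NEG replicate 2 the edgeR adjusted p was 0.358, and with scaling by total counts it was 0.0926, within a range of 0.000394 to 0.358 over 11 alternatives.

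SLC7A7, the y+LAT1 chain that exports cationic amino acids in exchange for neutral ones, is a low gene, at 4.33 and 4.62 CPM in 7TGP-POS and 2.90 and 2.55 CPM in 7TGP-NEG. The lines did not overlap, and the log2 fold change was 0.71 ± 0.16, or 1.64-fold (edgeR adjusted p = 0.00219). It lies at chr14:22773222-22829820, overlaps no other gene of the table and passed in every alternative that tested it.

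SLC7A11, the cystine-glutamate exchanger xCT, did not pass. At chr4:138164097-138242349, it had 59.9 and 64.1 CPM in 7TGP-POS libraries against 56.5 and 53.1 CPM in 7TGP-NEG libraries. Every 7TGP-POS library was above both 7TGP-NEG libraries, but the log2 fold change was only 0.18 ± 0.07 (edgeR adjusted p = 0.0903). Without 7TGP-POS replicate 1 it passed, at an edgeR adjusted p of 0.00337, the lowest of a range that reached 0.590. SLC7A11-AS1, on the opposite strand, had 62.6% of its counts and did not pass (edgeR adjusted p = 0.0555). SLC7A6, the y+LAT2 chain, had 80.9 and 79.3 CPM in 7TGP-POS against 77.2 and 77.4 CPM in 7TGP-NEG (edgeR adjusted p = 0.685), and it shares reads with SLC7A6OS.

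The summed level of the 6 light chains that pair with SLC3A2 was 28.4 and 28.8 CPM per kb of exon in 7TGP-POS and 26.0 and 24.6 in 7TGP-NEG. Set over SLC3A2 on the same per-length scale, this gave ratios of 1.93 and 1.87 in 7TGP-POS and 2.08 and 1.95 in 7TGP-NEG. The higher 7TGP-POS ratio lay just under the lower 7TGP-NEG ratio, and no test of the ratio was made. Overlapping genes on the opposite strand had 94.2% of the counts of SLC7A6 and 62.6% of those of SLC7A11, whereas SLC3A2 overlaps none. The part of shared reads in the ratios was not tested.

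The cationic amino acid transporters SLC7A1 and SLC7A2 both rose, and their relative SLC7A14 did not pass. SLC7A1, or CAT-1, brings arginine and lysine into most cells. At chr13:29509410-29595688, it had 69.5 and 71.4 CPM in 7TGP-POS libraries against 58.8 and 52.8 CPM in 7TGP-NEG libraries. The lines did not overlap, with means of 70.4 ± 1.38 CPM in 7TGP-POS and 55.8 ± 4.30 CPM in 7TGP-NEG, the wider pair. The log2 fold change was 0.34 ± 0.07, or 1.26-fold (edgeR adjusted p = 0.00207). Without 7TGP-NEG replicate 2 the edgeR adjusted p was 0.176, within a range of 6.75e-07 to 0.176 over 12 alternatives. SLC7A2, or CAT-2, had 13.7 and 16.9 CPM in 7TGP-POS and 9.22 and 9.00 CPM in 7TGP-NEG. It rose 1.68-fold, a log2 fold change of 0.75 ± 0.11 (edgeR adjusted p = 2.45e-05), and passed in every alternative that tested it.

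In the SLC1 family the neutral amino acid exchangers rose and the glutamate carriers did not pass. SLC1A5, or ASCT2, exchanges glutamine, serine and other neutral amino acids, and is a main route of glutamine into tumour cells. At chr19:46774883-46788594, it had 87.9 and 91.4 CPM in 7TGP-POS libraries against 73.1 and 72.2 CPM in 7TGP-NEG libraries. The gap between the lines exceeded the gap within either, with means of 89.6 ± 2.48 and 72.7 ± 0.611 CPM. The log2 fold change was 0.30 ± 0.07, or 1.23-fold (edgeR adjusted p = 0.00328). Without 7TGP-NEG replicate 1 the edgeR adjusted p was 0.0903 and without 7TGP-NEG replicate 2 it was 0.124, within a range of 1.24e-06 to 0.124. ENSG00000275719, which overlaps 5.69% of SLC1A5 on the opposite strand with 30.3% of its counts, also rose (edgeR adjusted p = 0.0228).

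SLC1A4, or ASCT1, which carries alanine, serine and cysteine, had 11.6 and 12.6 CPM in 7TGP-POS and 8.66 and 8.35 CPM in 7TGP-NEG. It lies at chr2:64988477-65023865. It rose 1.42-fold, a log2 fold change of 0.51 ± 0.10 (edgeR adjusted p = 8.42e-04), without overlap of the lines, and passed in every alternative that tested it. The 5 glutamate carriers SLC1A1, SLC1A2, SLC1A3, SLC1A6 and SLC1A7, best known from neurons and glia, had 0.393 to 6.44 CPM and log2 fold changes of -0.43 to 0.33.

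SLC43A3 showed the smallest adjusted p of the members. It is the family's purine nucleobase transporter rather than an amino acid carrier. At chr11:57406954-57427580, it had 158 and 164 CPM in 7TGP-POS libraries against 71.9 and 71.5 CPM in 7TGP-NEG libraries. The libraries of each line lay within a few percent of each other and far from the other line, at 161 ± 4.37 and 71.7 ± 0.283 CPM. The log2 fold change was 1.17 ± 0.07, or 2.25-fold (edgeR adjusted p = 1.62e-10), and it passed in every alternative that tested it. A read-through gene, ENSG00000254979, overlaps 82.9% of SLC43A3 on the same strand with 79.1% of its counts and rose alike, at 127 CPM in 7TGP-POS and 57.4 CPM in 7TGP-NEG (edgeR adjusted p = 2.29e-10), so reads of the 2 genes cannot be told apart. The leucine carriers of the family did not pass: SLC43A1, or LAT3, had 8.23 and 7.88 CPM in 7TGP-POS against 6.63 and 6.80 CPM in 7TGP-NEG (edgeR adjusted p = 0.117). SLC43A2, or LAT4, had 9.79 and 11.3 CPM in 7TGP-POS against 12.6 and 11.3 CPM in 7TGP-NEG (edgeR adjusted p = 0.256).

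**Figure D2:**
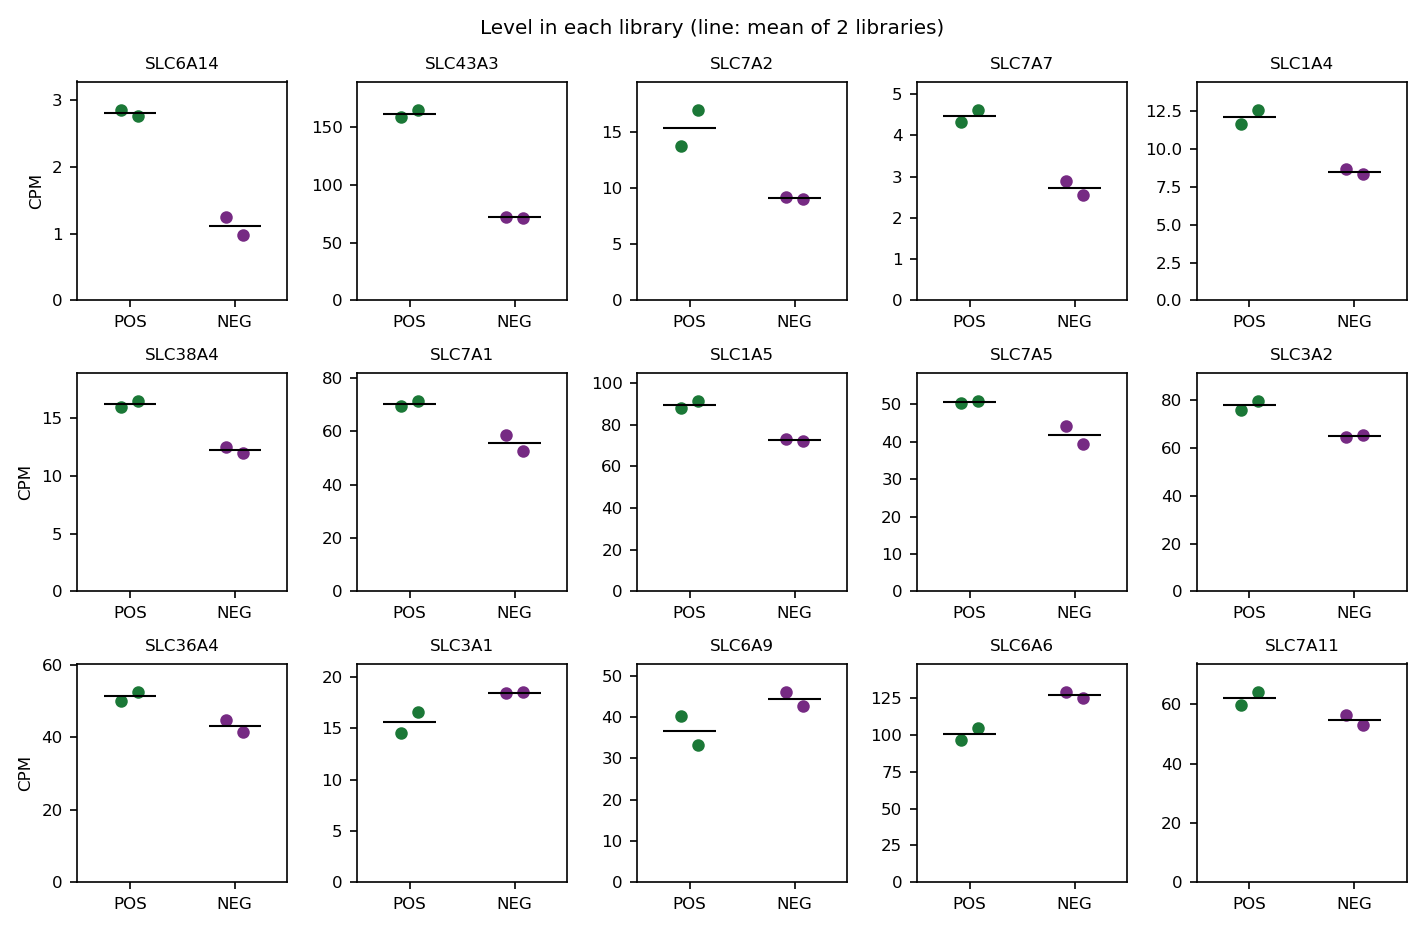
CPM of the 14 called members and SLC7A11 in each library, on linear axes from 0; points are libraries, horizontal lines the means of 2 libraries, POS on the left and NEG on the right of each panel. SLC43A3 stands at 158 and 164 CPM in 7TGP-POS against 71.9 and 71.5 CPM in 7TGP-NEG, and in every panel the points of the lines do not overlap.

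In the SLC38 family 1 of the 7 members tested rose, and the other 6 did not pass. SLC38A2, or SNAT2, a sodium-coupled carrier of glutamine and alanine that responds to amino acid shortage, had 525 and 589 CPM in 7TGP-POS and 553 and 529 CPM in 7TGP-NEG. The lines overlapped (log2 fold change 0.04, edgeR adjusted p = 0.806). SLC38A1, or SNAT1, had 216 and 228 CPM in 7TGP-POS against 202 and 199 CPM in 7TGP-NEG (edgeR adjusted p = 0.180), and passed only without 7TGP-POS replicate 1 (edgeR adjusted p = 0.00248). SLC38A4, or SNAT4, at chr12:46764761-46832408, rose 1.32-fold, a log2 fold change of 0.40 ± 0.09 (edgeR adjusted p = 0.00194). It had 16.0 and 16.5 CPM in 7TGP-POS and 12.5 and 12.0 CPM in 7TGP-NEG, without overlap of the lines. It lies wholly within SLC38A4-AS1 on the opposite strand, which had 333% of its counts and rose as well (edgeR adjusted p = 0.00465). All 6 tested members of the family that did not pass, SLC38A1, SLC38A2 and the lysosomal amino acid sensor SLC38A9 among them, had log2 fold changes of -0.15 to 0.15.

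Of the SLC36 family, SLC36A4 rose and the other 2 tested did not pass. SLC36A4, a carrier of proline and tryptophan, had 50.1 and 52.5 CPM in 7TGP-POS libraries against 44.7 and 41.6 CPM in 7TGP-NEG libraries. The lines did not overlap, and the log2 fold change was 0.25 ± 0.07, or 1.19-fold (edgeR adjusted p = 0.0172). The gene lies at chr11:93144171-93197964. Its call was lost without 7TGP-NEG replicate 1 (edgeR adjusted p = 0.0773), without 7TGP-NEG replicate 2 (0.342) and with scaling by total counts (0.127), within a range of 0.000368 to 0.342.

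The SLC6 family gave 1 rise and 2 falls among 17 tested. SLC6A14, or ATB0,+, takes up nearly all neutral and cationic amino acids and had the largest log2 fold change of the called members. It had 179 and 145 counts in 7TGP-POS libraries and 79 and 60 counts in 7TGP-NEG libraries, which is 2.85 and 2.77 CPM against 1.24 and 0.976 CPM. The lines were far apart for so low a gene, and the log2 fold change was 1.34 ± 0.21 (edgeR adjusted p = 6.54e-05). It lies at chrX:116436622-116461458, overlaps no other gene of the table and passed in every alternative that tested it.

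SLC6A6, the taurine transporter, had 96.5 and 104 CPM in 7TGP-POS libraries against 129 and 125 CPM in 7TGP-NEG libraries. It lies at chr3:14402576-14489349. It fell to 79.2% of the 7TGP-NEG level without overlap of the lines, a log2 fold change of -0.34 ± 0.07 (edgeR adjusted p = 0.00181). Without 7TGP-NEG replicate 1 the edgeR adjusted p was 0.107, within a range of 5.05e-10 to 0.107. SLC6A9, the glycine transporter GlyT1, at chr1:43991500-44031467, had 40.3 and 33.1 CPM in 7TGP-POS against 46.0 and 42.7 CPM in 7TGP-NEG, and its 7TGP-POS libraries differed from each other more than the lines did at their nearest. It fell to 82.8% of the 7TGP-NEG level, a log2 fold change of -0.27 ± 0.09 (edgeR adjusted p = 0.0322). The call was lost with DESeq2 (adjusted p = 0.0511), without 7TGP-POS replicate 2 (edgeR adjusted p = 0.142) and without 7TGP-NEG replicate 1 (0.281), within a range of 4.11e-07 to 0.281. Its log2 fold change was -0.15 without 7TGP-POS replicate 2 and -0.42 without 7TGP-POS replicate 1. On the opposite strand, ENSG00000230615, with 48.3% of its counts, rose, and CCDC24, with 31.0%, fell. Beside SLC6A6, SLC6A8, SLC6A9 and SLC6A14, the other 15 SLC6 members had at most 0.813 CPM in any library, carriers of noradrenaline, dopamine, serotonin and GABA included.

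Levels were compared between genes only per length, as CPM per kb of merged exon, and with no test. SLC38A2 was highest in every library, at 79.5 and 89.3 in 7TGP-POS and 83.7 and 80.2 in 7TGP-NEG, which is 28.6% and 30.5% of the summed level of all members in 7TGP-POS and 32.9% and 32.7% in 7TGP-NEG. SLC43A3 was second in 7TGP-POS at 35.0 and 36.4, above SLC1A5 at 26.4 and 27.4, SLC38A1 at 21.6 and 22.8 and SLC3A2 at 14.7 and 15.4. In 7TGP-NEG, SLC1A5 at 21.9 and 21.7 and SLC38A1 at 20.2 and 19.9 stood above SLC43A3 at 15.9 and 15.8, with SLC6A6 next at 15.6 and 15.1 and SLC3A2 at 12.5 and 12.6. Per kb of exon, SLC6A6 thus lay under SLC3A2 in both 7TGP-POS libraries, at 11.7 and 12.6, and above it in both 7TGP-NEG libraries. SLC7A5 at 10.6 and 10.7 and SLC7A6 at 10.7 and 10.5 could not be ordered in 7TGP-POS. The 10 highest members held 81.5% and 82.4% of the summed level in 7TGP-POS and 81.1% and 81.2% in 7TGP-NEG. The summed level itself was 278 and 293 in 7TGP-POS against 254 and 246 in 7TGP-NEG. These sums include the nucleobase transporter SLC43A3, whose mean was 35.7 in 7TGP-POS and 15.9 in 7TGP-NEG and which shares reads with a read-through gene. Deposited counts take in introns, so the order was also read per kb of gene span, where 9 of these 10 members stayed among the highest 10. There SLC6A6 lay under SLC3A2 in both lines, at means of 1.16 against 2.38 in 7TGP-POS and 1.46 against 1.99 in 7TGP-NEG. SLC43A3 lay above SLC38A1 in both, at 7.82 against 2.55 in 7TGP-POS and 3.48 against 2.31 in 7TGP-NEG. The orders of these pairs in 7TGP-NEG thus depend on the length used. Sums and shares of the level were taken per kb of exon only.

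**Figure D3:**
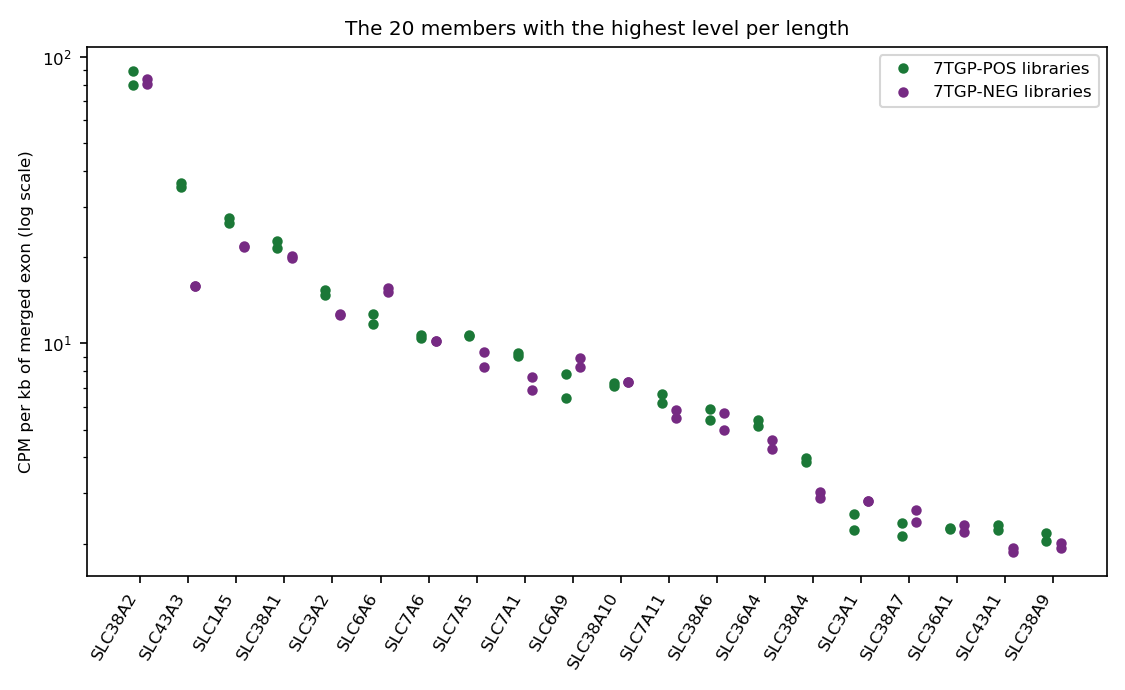
Level of the 20 highest members in each library as CPM per kb of merged exon on a log axis, ordered by level. SLC38A2 is highest in all 4 libraries, and SLC43A3 lies at 35.0 and 36.4 in 7TGP-POS and at 15.9 and 15.8 in 7TGP-NEG.

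The genes around each called member were counted beside the 11.6% of all genes tested that rose and the 10.9% that fell. Among the 40 tested genes nearest to SLC43A3, 20 on each side, 20 rose by edgeR's test and the others did not pass, with a median log2 fold change of 0.44. Around SLC6A14, 16 rose and 1 fell, with a median of 0.52, and around SLC6A6 20 fell and the others did not pass, with a median of -0.30. For SLC6A6 the median of the neighbours was close to the gene's own -0.34. Around the other 11 called members, the most rises were 10 at SLC7A2, with 2 falls, and 8 at SLC7A7. The most falls were 7 at SLC7A5, with 3 rises. Medians around these 11 lay between -0.08 and 0.16, for example -0.00 at SLC3A2, -0.04 at SLC1A5, -0.08 at SLC7A5, 0.04 at SLC7A2 and 0.16 at SLC7A1. The part of the neighbourhood in each gene's change was not tested. Within the families, SLC43A1 lies 57.0 kb from SLC43A3, in the same raised stretch, and did not pass. SLC38A1, SLC38A2 and SLC38A4 lie in 1 run on chromosome 12, with gaps of 88.2 and 392 kb, and only SLC38A4 passed.

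**Figure D4:**
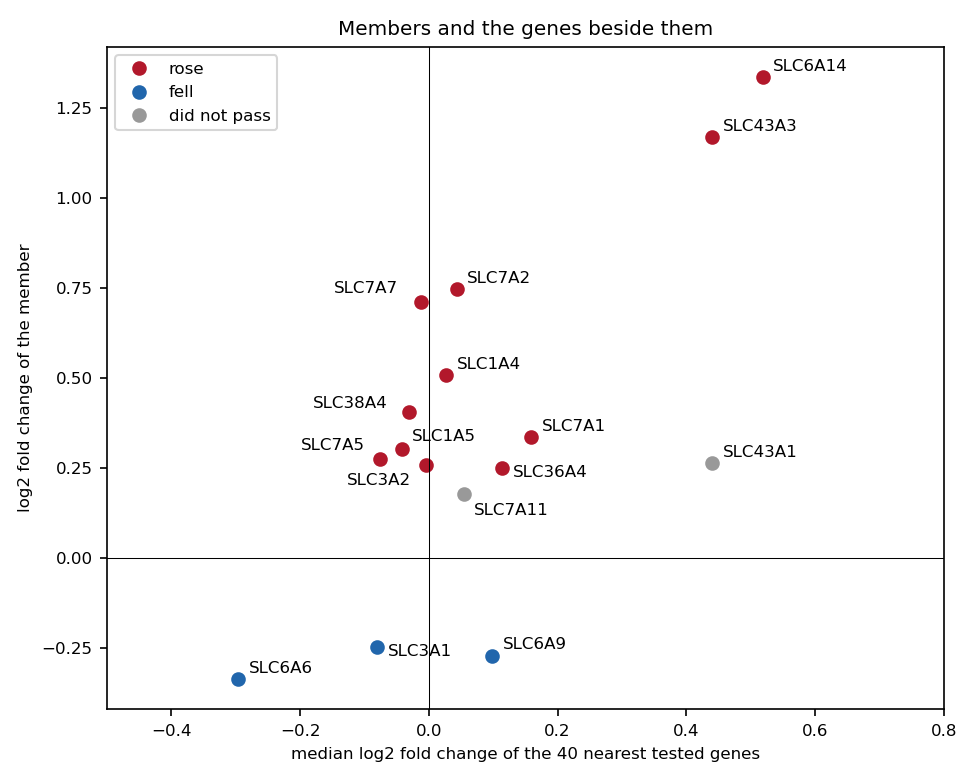
Log2 fold change, 7TGP-POS over 7TGP-NEG, of each called member, SLC7A11 and SLC43A1 (vertical axis) against the median of the 40 tested genes nearest to it (horizontal axis). SLC43A3, SLC6A14 and SLC6A6 have neighbours with medians of 0.44, 0.52 and -0.30, as has SLC43A1 with 0.44, and the other called members have medians between -0.08 and 0.16.

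Other genes of amino acid metabolism were counted in 8 lists. Of the 16957 protein-coding genes tested, 14.7% rose and 14.8% fell by edgeR. Of the 12306 at 5 CPM or more in the higher line, 17.5% rose and 18.0% fell. At an unadjusted edgeR p under 0.05, 3379 of the 16957 were higher and 3441 were lower. Of 21 regulators of the amino acid response, all tested, 10 rose and 0 fell by edgeR, with a median log2 fold change of 0.20; at an unadjusted p under 0.05, 12 were higher and 1 was lower, and by DESeq2 9 rose and 0 fell. DDIT3, 1 of the 10 that rose by edgeR, overlaps the synthetase gene MARS1, which had 7.04 times its counts. DDIT4, an inhibitor of mTORC1, had 125 CPM in 7TGP-POS and 50.8 CPM in 7TGP-NEG (edgeR adjusted p = 6.57e-11). It overlaps DDIT4-AS1, which had 0.674 times its counts. CEBPB, a partner of ATF4, had 52.9 CPM in 7TGP-POS and 35.3 CPM in 7TGP-NEG (edgeR adjusted p = 4.42e-06), and overlaps CEBPB-AS1, which had 0.407 times its counts. TRIB3, a target and inhibitor of ATF4, had 31.7 CPM in 7TGP-POS and 22.8 CPM in 7TGP-NEG (edgeR adjusted p = 7.73e-05), and ATF4 itself rose 1.17-fold (edgeR adjusted p = 0.0258). The count depended on single libraries: 4 rose without 7TGP-NEG replicate 1, 5 without 7TGP-NEG replicate 2 and 5, with 1 fall, under scaling by total counts.

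Of the 20 cytosolic aminoacyl-tRNA synthetases, which load amino acids onto tRNA, 9 rose and 0 fell by edgeR, with a median log2 fold change of 0.14. At an unadjusted p under 0.05, 10 were higher and 1 was lower, and by DESeq2 8 rose and 0 fell. TARS1 had 207 CPM in 7TGP-POS and 157 CPM in 7TGP-NEG, and AARS1 had 121 CPM in 7TGP-POS and 96.2 CPM in 7TGP-NEG (edgeR adjusted p = 0.000487 and 0.0021). MARS1 rose 1.24-fold (edgeR adjusted p = 0.00493). It shares reads with DDIT3 of the regulators, which had 0.142 times its counts. Only 1 rose without 7TGP-NEG replicate 1 and 1 without 7TGP-NEG replicate 2, and 15 rose without 7TGP-POS replicate 1, so the count rests on the choice of libraries. Scaling by total counts left 4 rises and 1 fall.

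Of 20 enzymes of amino acid synthesis, 9 rose and 2 fell, with a median of 0.14. The proline enzymes ALDH18A1 and PYCR1 rose 1.43-fold and 1.42-fold (edgeR adjusted p = 1.85e-05 and 3.59e-05), and PYCR1 overlaps ENSG00000263585. GLUL, glutamine synthetase, had 67.5 CPM in 7TGP-POS and 110 CPM in 7TGP-NEG, a log2 fold change of -0.71 (edgeR adjusted p = 6.00e-07). Without 7TGP-NEG replicate 1, 4 of the enzymes rose, and without 7TGP-NEG replicate 2, 3 rose. Scaling by total counts gave 4 rises and DESeq2 gave 5.

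In the remaining lists the counts are to be read beside the 14.7% of protein-coding genes that rose and the 14.8% that fell. In amino acid sensing by mTORC1, 3 of 26 tested rose and 6 fell, with a median of -0.06. RHEB, which activates mTORC1, had 54.0 CPM in 7TGP-POS and 33.0 CPM in 7TGP-NEG (edgeR adjusted p = 4.94e-07), while SESN3, an inhibitor that overlaps LNCRNA-IUR, had 16.4 CPM in 7TGP-POS and 34.1 CPM in 7TGP-NEG (edgeR adjusted p = 6.50e-09). FLCN, which acts on the lysosomal Rag GTPases, had 56.8 CPM in 7TGP-POS and 37.8 CPM in 7TGP-NEG (edgeR adjusted p = 3.06e-06), but it overlaps MPRIP, which had 7.48 times its counts. Among enzymes of glutamine and branched-chain amino acid breakdown, 2 of 11 rose and 2 fell. BCAT1, the cytosolic branched-chain aminotransferase, had 129 CPM in 7TGP-POS and 91.6 CPM in 7TGP-NEG (edgeR adjusted p = 3.85e-05). GLUD1 and GLUD2, for glutamate dehydrogenase, had log2 fold changes of -0.31 and -0.32 (edgeR adjusted p = 0.0034 and 0.00327), and as near-identical copies they cannot be told apart. In glutathione synthesis and use, 1 of 12 rose and 2 fell: CD44, a partner of SLC7A11 at the surface, rose 1.18-fold (edgeR adjusted p = 0.0373), and GPX1 and GSS had log2 fold changes of -0.24 and -0.23 (edgeR adjusted p = 0.0197 and 0.0232).

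Of 14 mitochondrial amino acid carriers tested, 4 rose and 2 fell, with a median of 0.12. Scaling by total counts gave 1 rise and 3 falls, and DESeq2 gave 1 rise and 1 fall. Without 7TGP-NEG replicate 1 there were 2 rises and 1 fall, and without 7TGP-NEG replicate 2 there were 1 rise and 1 fall. SLC25A26, the S-adenosylmethionine carrier, had 35.3 CPM in 7TGP-POS and 16.1 CPM in 7TGP-NEG (edgeR adjusted p = 1.02e-09) and overlaps LRIG1. SFXN3, of the family of mitochondrial serine carriers, had 79.7 CPM in 7TGP-POS and 108 CPM in 7TGP-NEG (edgeR adjusted p = 0.000118), and SLC25A15, the ornithine carrier, rose 1.40-fold (edgeR adjusted p = 0.0158). Of 11 other surface and lysosomal transporters tested, 2 rose and 1 fell. These small counts shrank without either 7TGP-NEG library: without replicate 2, 1 of the breakdown enzymes, 0 of the glutathione genes and 1 of the other transporters were called by edgeR, and without replicate 1 the counts were 2, 0 and 1. SLC15A4, a lysosomal histidine and peptide carrier, rose 1.25-fold (edgeR adjusted p = 0.0101). MFSD12, a lysosomal transporter, had 67.4 CPM in 7TGP-POS and 77.9 CPM in 7TGP-NEG (edgeR adjusted p = 0.045). MFSD12 overlaps HMG20B, which had 0.911 times its counts. SLC15A3 also rose, at 11.3 CPM in 7TGP-POS and 3.50 CPM in 7TGP-NEG (edgeR adjusted p = 5.19e-09), but it overlaps TMEM132A, which had 12.7 times its counts.

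**Figure D5:**
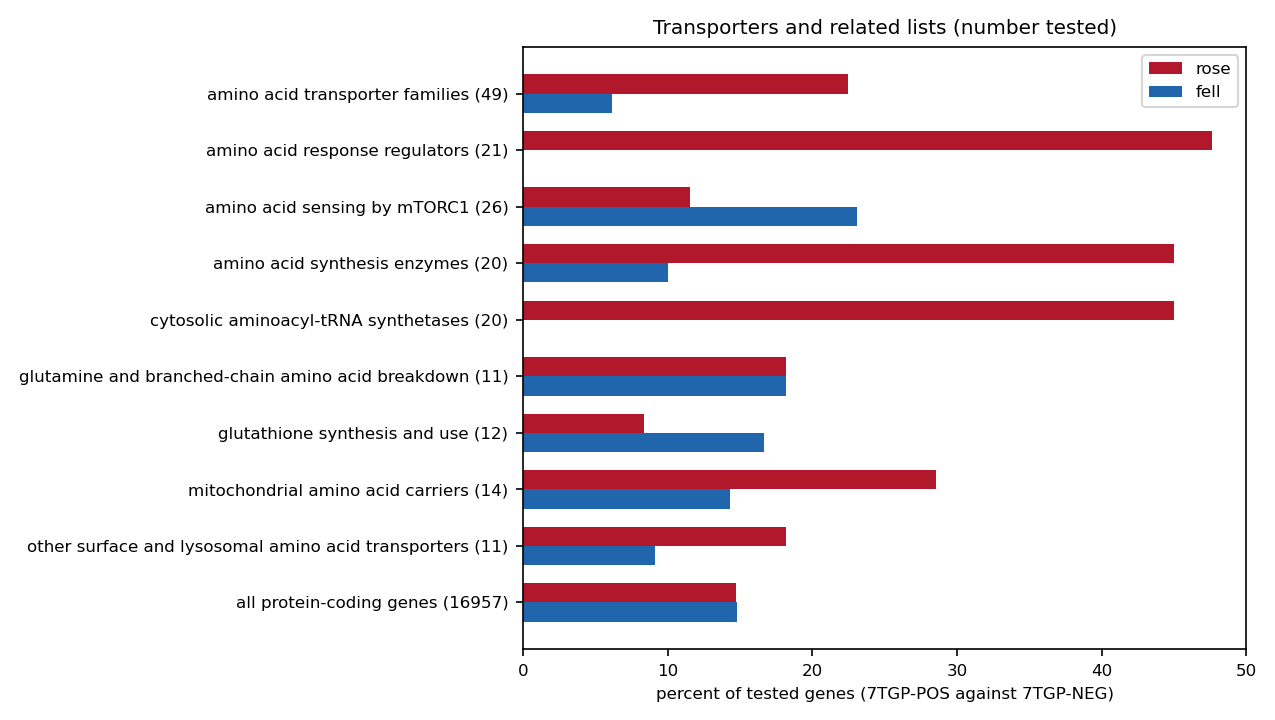
Percent of tested genes that rose or fell in 7TGP-POS against 7TGP-NEG (horizontal axis) in the transporter families, the 8 lists of amino acid metabolism and all protein-coding genes, with the number tested in brackets. Rises reach 47.6% of the regulators and 45.0% of the synthetases and of the synthesis enzymes, against 22.4% of the transporters and 14.7% of protein-coding genes; these list counts shrink without single 7TGP-NEG libraries.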

How the data were processed

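Raw counts, which the authors deposited as 1 table keyed by Ensembl ID, were used unchanged; the depth of 55894092 to 63034563 counts limits precision mainly for low genes. HISAT2, Bowtie2, DESeq2 and hg19 are named, without versions, per the submitters' processing notes; which program counted reads, on what annotation and with what strand rule is not given in the sources used here. Every one of the 43714 IDs is in GENCODE release 29 on GRCh38, which gave positions, and 43289 have a current symbol. Of 1319 genes with at least 100 counts per library lying inside a host gene and sharing no exon with it, the host had at least as many counts in all 4 libraries in 1319 cases, 839 of them on opposite strands: counts cover whole spans on both strands, and overlapping genes share reads. Of the members, 36 overlap another gene of the table and 23 do not.

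The lines were compared in R 4.3.3 by the quasi-likelihood F test of edgeR 4.0.16 (robust, with TMM, filterByExpr at minimum count 10 and minimum total 15, and no term but the line), adjusted by Benjamini-Hochberg over 30952 genes at 0.05. SE is the log2 fold change over the root of F. Libraries of a line differed beyond counting noise, with a chi-square per degree of freedom of 17.1 in 7TGP-POS and 32.8 in 7TGP-NEG. Full values are given for called members at 5 CPM or more and for SLC3A2, SLC7A5, SLC7A11 and SLC1A5, for up to 4 called members under 5 CPM, up to 4 others with the highest CPM and up to 3 per other list with the smallest adjusted p; SLC38A9, SLC7A14, ATF4, SLC43A1 and SLC43A2 were chosen after their values were seen. Members, lists and markers were chosen with earlier results of these data known. Alternatives were RLE and total-count scaling, other count filters, DESeq2 1.42.0, limma-voom (limma 3.58.1), a replicate block, each library left out and genes without an overlapping gene.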

Additional observations from a re-analysis of the deposited data

How the results depend on the processing

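Of the 14 called members, SLC1A4, SLC38A4, SLC43A3, SLC6A14, SLC7A2 and SLC7A7 passed in every alternative that tested them, and 8 did not in at least 1; no direction reversed. Leaving out each library in turn gave 7 to 14 members that rose and 1 to 3 that fell, 2333 to 4703 of all genes that rose and 2025 to 4457 that fell, and 21 to 71 called genes of the other lists, against 55. Without 7TGP-NEG replicate 1, 8 of the 14 calls were kept, and without 7TGP-NEG replicate 2 also 8. Scaling by total counts gave 8 members that rose and 3 that fell, and 2268 of all genes rose; it shifted the median log2 fold change by -0.08, and 36.0% of calls were rises, against 51.5%. DESeq2 gave 11 members that rose and 1 that fell; RLE scaling and limma-voom each gave 11 and 2, and no filter or a filter at 1 CPM in 2 libraries gave 11 and 3. Restricted to genes without an overlapping gene, 4 members rose and 0 fell of 16 tested, with 1111 rises and 1093 falls over all genes and 24 called genes of the other lists; these 4 are SLC3A2, SLC6A14, SLC7A1 and SLC7A7, the called members in that set. A replicate block gave the same 11 and 3 members, 4175 rises and 4051 falls over all genes and 59 list genes. Deviations of the replicate 1 libraries from their line means had a correlation of 0.00790 across genes. With 2 libraries per line, those of replicate 2 are their mirror image. This value therefore cannot settle whether same-numbered libraries share more than a number. Causes of lost calls were not tested. Depth limits the members under 5 CPM: for the 10 untested ones a difference was not detectable at this depth.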
